A study of Mus musculus with 6 samples.

Results

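Corticosteroid receptors and genes that respond to, or act on, glucocorticoids were followed in the forebrain of mice after acute psychological stress. The set comprised Nr3c1, Nr3c2, Hsd11b1, Fkbp5, Sgk1, Tsc22d3, Klf9, Mt1 and Mt2. They were found by gene symbol and made up 9 of the 23282 entries in the count tables, each with a single entry, and all 9 passed the filter on low counts. The rule that found them uses no measured value, but the set was proposed with earlier results of these data known.

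The animals were male C57BL/6J mice, 8 to 10 weeks old. For water avoidance stress (WAS), a mouse spent 1 h on a small platform in the middle of a basin of water. In the control condition the water was left out, and both platform and duration were kept. No unhandled mice were analysed here. A single hemisphere of the forebrain was taken directly afterwards, without the olfactory bulb and cerebellum, and the RNA was read by 3′ sequencing, in which each transcript is tagged near its end and the gene's count does not depend on its length. There were 3 WAS libraries and 3 control libraries, 1 for each replicate. Levels are given as CPM, the reads of a gene for each 1000000 reads counted in the library. Total counts lay between 9248520 and 10502029. The headings inside the tables start with WC in the WAS libraries and with WS in the control libraries, and the sources used here do not say what these letters mean. Groups follow the sample labels, and every direction given here would turn around if the labels had been exchanged.

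Corticosterone, the main glucocorticoid of mice, is released by the adrenal gland during stress and acts in the brain through a pair of related receptors. The mineralocorticoid receptor, encoded by Nr3c2, binds it with high affinity and is best known from the hippocampus. The glucocorticoid receptor, encoded by Nr3c1, has lower affinity and is found in most neurons and glia. Without hormone the receptors are held in the cytoplasm by heat shock proteins and co-chaperones. With hormone they move to the nucleus, where they bind DNA at glucocorticoid response elements or act through other transcription factors. Fkbp5, Sgk1, Tsc22d3, Klf9 and the metallothioneins Mt1 and Mt2 are widely used as readouts of this signalling.

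In the mouse genome (GRCm38, GENCODE M21), Nr3c2 lies at chr8:76899442-77245012 on the plus strand and Hsd11b1 at chr1:193221634-193264075 on the minus strand. Fkbp5 lies at chr17:28399094-28517527 and Tsc22d3 at chrX:140539528-140600659, both on the minus strand. Sgk1 lies at chr10:21882184-21999903, Klf9 at chr19:23141226-23168134, Mt2 at chr8:94172664-94173568 and Mt1 at chr8:94179082-94180327, all on the plus strand. With 3′ sequencing the reads come from near the ends of the transcripts of these genes.

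Of the members' promoters, 3 are shown: the Sgk1 window with the full glucocorticoid response element, to which the receptors bind, and the windows of Mt1 and Mt2, which held at least 3 metal response elements each. RefSeq promoter windows (250 bases before and 50 after a transcription start, build GRCm38) were given for 8 of the 9 members, with 15 windows in all, and none for Nr3c1. The palindromic glucocorticoid response element was searched as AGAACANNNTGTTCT on both strands and was present in 3 of 32851 windows (0.00913%). A match belongs to Sgk1, which has several starts, and lies at chr10:21993640-21993939 on the plus strand. In the following sequence, 5′ to 3′, the element is in capitals and begins 189 bases before the start.
Sgk1: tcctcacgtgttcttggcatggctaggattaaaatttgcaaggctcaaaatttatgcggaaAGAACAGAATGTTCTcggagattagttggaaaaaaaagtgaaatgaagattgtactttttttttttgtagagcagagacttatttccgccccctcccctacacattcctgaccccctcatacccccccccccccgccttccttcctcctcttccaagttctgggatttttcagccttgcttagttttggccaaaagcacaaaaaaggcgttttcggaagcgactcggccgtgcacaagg

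The core of the metal response element, where the zinc-sensing factor MTF-1 binds, was searched as TGCGCNC or TGCACNC on both strands. At least 1 copy was present in 25.7% of all windows, and 3 or more in 1.97%. The window of Mt1 lies at chr8:94178839-94179138 on the plus strand and held 3 copies, and that of Mt2 at chr8:94172368-94172667 on the plus strand held 4. The cores are in capitals.
Mt1: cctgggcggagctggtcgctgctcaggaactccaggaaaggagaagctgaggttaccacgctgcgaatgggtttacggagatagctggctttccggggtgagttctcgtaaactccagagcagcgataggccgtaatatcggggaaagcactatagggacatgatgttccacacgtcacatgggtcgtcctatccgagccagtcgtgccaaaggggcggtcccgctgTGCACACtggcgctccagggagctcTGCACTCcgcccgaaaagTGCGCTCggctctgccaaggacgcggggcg
Mt2: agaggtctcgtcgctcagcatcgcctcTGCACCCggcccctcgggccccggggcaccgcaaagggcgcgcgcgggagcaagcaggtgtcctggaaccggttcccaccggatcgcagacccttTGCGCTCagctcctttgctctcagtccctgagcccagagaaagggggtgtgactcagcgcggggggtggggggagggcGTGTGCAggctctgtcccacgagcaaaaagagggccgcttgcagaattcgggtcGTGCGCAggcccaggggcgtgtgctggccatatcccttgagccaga
The shorter element AGAACA was present on either strand in 19% of all windows. Among the windows not shown, a single AGAACA was found for Tsc22d3 and in 2 further windows of Sgk1, and a single metal core for Nr3c2, Hsd11b1 and another window of Sgk1. The search covers only these letters in these windows. Mt2 and Mt1 lie on the same strand of chromosome 8, with 5513 bases between the end of Mt2 and the start of Mt1 (GRCm38, GENCODE M21).

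Genes that mark regions of the forebrain differed between libraries of the same group. The summed level of 8 listed thalamus and midbrain genes was 711 CPM in WAS replicate 1 and 619 CPM in WAS replicate 3, against 274 to 294 CPM in the other 4 libraries, and 6 of the 8 had an unadjusted p under 0.05 (edgeR). The same pair of libraries had the lowest sums of the striatal genes, 132 and 337 CPM, against 894 to 1799 CPM elsewhere. General neuronal markers were present in each library, with sums of 5291 to 6498 CPM, and no list had a marker at 0 in all 6 libraries. The choroid plexus genes divided the libraries otherwise. Their sums were 311 CPM in WAS replicate 1 and 307 CPM in control replicate 2, against 1363 to 1786 CPM elsewhere. Because WAS replicates 1 and 3 stand apart in the thalamic and striatal genes, results are also given without them. This leaves a single WAS library that is assumed to vary like the controls. In bulk tissue, fewer cells of a type and less RNA per cell cannot be told apart.

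No member passed an adjusted p of 0.05. A group of 3 had an unadjusted p under 0.05 in the edgeR quasi-likelihood test, Mt1 and Mt2 with higher levels in the WAS libraries and Klf9 with lower levels, and Nr3c1 lay at the border. Over all 15237 genes in the test the share with such a p was 7.25%, 3.84% with higher and 3.41% with lower levels in the WAS libraries, so 3 of 9 members stand beside 1104 of 15237 genes. With a fold change of at least 1.5 required as well, 2.49% of all genes passed and 0 of the 9 members. By adjusted p, 0 genes (0%) passed in edgeR, against 1104 by unadjusted p, and limma also gave 0, while DESeq2 gave 22, with no member among them. The median log2 fold change, always written for WAS relative to control, was 0.16 over the members, 6 of them above 0, and 0.00 over all genes. The median size of the change without its sign was 0.22 for members and 0.13 for all genes. Leaving out WAS replicates 1 and 3 together, a choice made after the data were seen, left 0 of 9 members with an unadjusted p under 0.05, beside 5.34% of all genes. No member passed either without WAS replicate 1 alone or without control replicate 2 alone, where 1001 and 623 of all genes did. Without WAS replicate 2, 5 members passed (Nr3c1 and Hsd11b1 in addition), and the number of all genes that did was 2084, against 1104 with 6 libraries. The members that passed were Nr3c1 and Mt2 when WAS replicate 3 was omitted (653 of all genes), Klf9 and Mt1 when control replicate 3 was (1102), and Mt2 alone when control replicate 1 was (757).

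**Figure D1:**
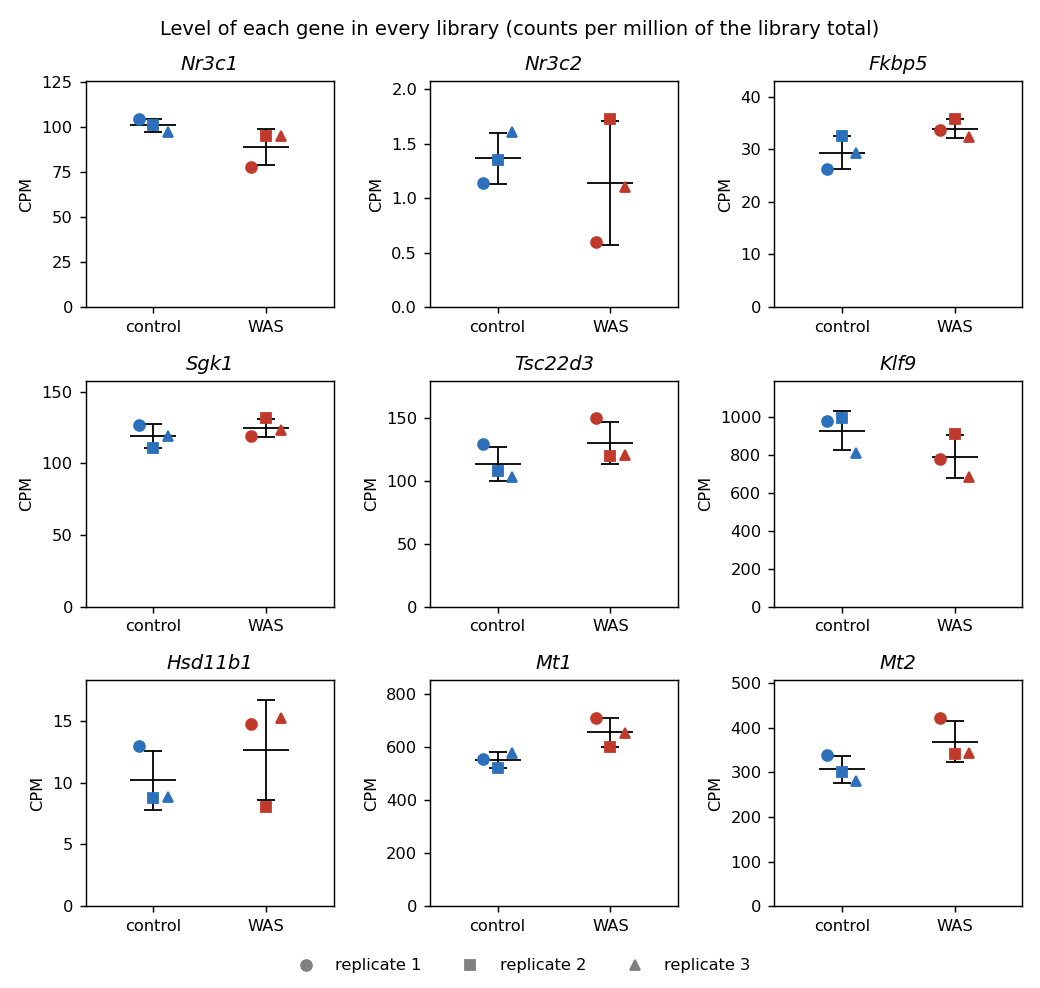
Level of each of the 9 genes in each library, in CPM on axes that start at 0, with 1 point per library a long bar for the mean of each group of 3 and error bars for 1 SD. The WAS points of Mt1 and Mt2 all lie above the control points, those of Nr3c1 all lie below them, and in the other 6 panels the groups overlap. Groups did not overlap for 12.2% of all genes tested.

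Of the receptors, Nr3c1, which lies at chr18:39410545-39519421 on the minus strand (GRCm38), had lower values in the WAS libraries. Its levels were 77.7, 95.2 and 94.9 CPM in WAS replicates 1 to 3 and 104.7, 101.1 and 97.1 CPM in control replicates 1 to 3. All WAS values lay below all control values, and WAS replicate 1 lay well below the other 5. Means were 89.2 ± 10 CPM and 101 ± 3.81 CPM (SD, n = 3 each). The log2 fold change was -0.22 with a standard error of 0.10 (95% interval -0.43 to 0.00, 0.861 times the control level), with an unadjusted p of 0.05001 and an adjusted p of 0.686 in edgeR. The exact permutation test on log2 CPM gave the smallest two-sided p that 3 against 3 libraries allow, 0.1. Groups that did not overlap were found for 3 members (Nr3c1, Mt1 and Mt2), beside 12.2% of all genes tested, and after TMM scaling for 2 (Nr3c1 and Mt1), beside 11.7%. Omitting WAS replicate 1 alone gave a log2 fold change of -0.13, and omitting WAS replicates 1 and 3 also gave -0.13 (unadjusted p = 0.3, adjusted p = 0.968, edgeR).

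The summed neuronal markers were also lower in the WAS libraries, with 5291, 5796 and 5404 CPM against 6019, 6498 and 5803 CPM, without overlap. Of the 5 markers, 1 had a log2 fold change above 0 and 2, Rbfox3 (-0.36) and Syt1 (-0.24), had an unadjusted p under 0.05 in edgeR, while Snap25 was at -0.26, Tubb3 at -0.01 and Map2 at 0.07. This comparison of Nr3c1 with the neuronal list was chosen after the values were seen. The list's part in the level of Nr3c1 was not tested.

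Nr3c2 was near the limit of this depth. Its counts were 6, 16 and 11 reads in WAS replicates 1 to 3 and 12, 14 and 16 reads in the controls. The lowest count, 6, has an exact Poisson 95% interval of 2.2 to 13.1, which covers counting error only, and the groups overlapped. Summed counts were 33 for the WAS group (22.7 to 46.3) and 42 for the control group (30.3 to 56.8). The log2 fold change was -0.30 with a standard error of 0.49, and its interval of -1.38 to 0.78 runs from 0.384 to 1.72 times the control level (unadjusted p = 0.556, adjusted p = 0.95, edgeR). The counts are low and the interval wide, so the direction was not resolved. Without WAS replicates 1 and 3 the sign turned, to a log2 fold change of 0.30. The order of the 6 libraries by Nr3c2 was that of the summed striatal list, from WAS replicate 2 as the highest to WAS replicate 1 as the lowest. In this comparison of 9 members with 14 marker lists, 2 of 126 pairs had the same order. The Nr3c2 order rests on 6 to 16 reads per library with overlapping Poisson intervals, so it was itself not resolved.

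Hsd11b1 encodes the enzyme that regenerates active corticosterone inside cells from its inactive form. It was measured at 14.7, 8.0 and 15.2 CPM in the WAS libraries and at 12.9, 8.8 and 8.8 CPM in the controls. WAS replicates 1 and 3 were the highest of all libraries and WAS replicate 2 the lowest. The means of 12.6 ± 4.03 and 10.2 ± 2.40 CPM gave a log2 fold change of 0.28 with a standard error of 0.25 (95% interval -0.28 to 0.84, unadjusted p = 0.294, adjusted p = 0.892, edgeR). The gene's biological coefficient of variation, the spread between replicates beyond counting, was 21.1%, which is 1.26 times the 16.7% typical of its abundance, and 8.2% of genes exceeded that ratio.

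The summed hippocampal markers ordered the libraries much as Hsd11b1 did, with 287, 142 and 238 CPM in the WAS group and 207, 158 and 162 CPM in the controls. WAS replicates 1 and 3 were highest and WAS replicate 2 lowest for both, with the remaining libraries in the same order. Of the 8 markers, 6 had log2 fold changes above 0 and 2 had an unadjusted p under 0.05 in edgeR, Fibcd1 (1.58) and C1ql2 (1.97). Neurod6 was at -0.12 and Iyd at -0.08, and Wfs1 was highest in WAS replicate 2, at 41.6 CPM. The sums of the thalamus and midbrain, meningeal fibroblast and blood lists were also highest in WAS replicates 1 and 3. Without WAS replicate 2 the log2 fold change of Hsd11b1 was 0.52, with an unadjusted p under 0.05 in edgeR. Without WAS replicates 1 and 3 it was -0.39. The direction thus depended on which WAS libraries were kept. The hippocampal list was chosen for this comparison after its values were seen, and its part in these values was not tested.

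**Figure D2:**
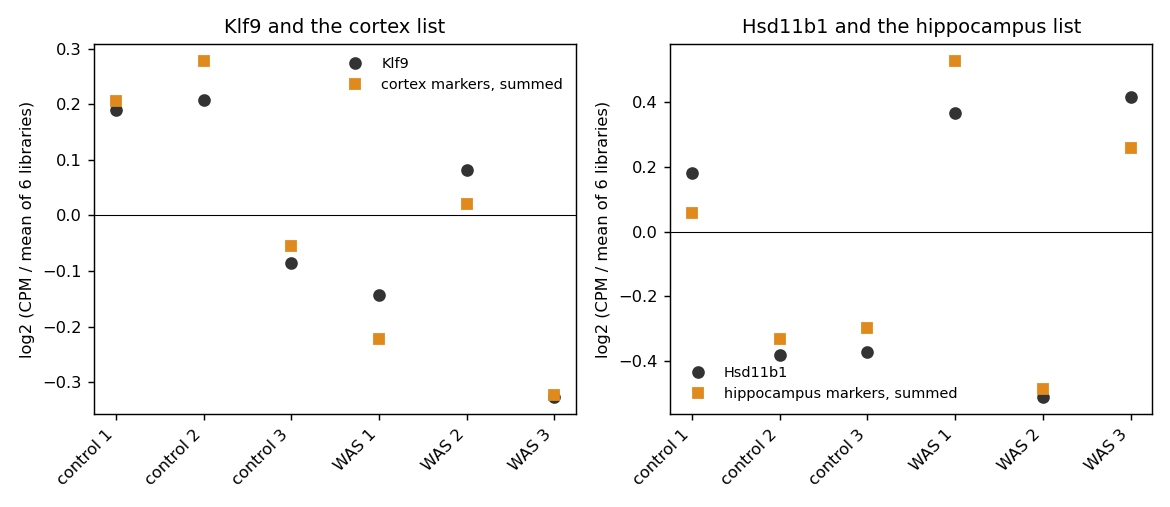
Level of Klf9 beside the summed cortical markers (left) and of Hsd11b1 beside the summed hippocampal markers (right), as log2 of the CPM over the mean of the 6 libraries, with 1 circle and 1 square per library. Klf9 and the cortical sum put the 6 libraries in the same order, and Hsd11b1 and the hippocampal sum differ in order only for WAS replicates 1 and 3.

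Klf9, a Krüppel-like zinc finger transcription factor, was the response gene with lower values in the WAS libraries. Its levels were 777.1, 908.4 and 684.3 CPM in WAS replicates 1 to 3 and 978.6, 991.2 and 809.1 CPM in the controls. The groups overlapped, since WAS replicate 2 was above control replicate 3. Means were 790 ± 113 and 926 ± 102 CPM, and the log2 fold change was -0.27 with a standard error of 0.11 (95% interval -0.51 to -0.02, 0.832 times the control level). The unadjusted p was 0.037 and the adjusted p 0.667 in edgeR, and the exact permutation p was 0.2. Counting error at this abundance is 1.08%, against coefficients of variation of 14.3% and 11% within the groups. With scaling to total counts alone, the unadjusted p was no longer under 0.05. The log2 fold change was -0.17 without WAS replicate 3 alone, and with WAS replicates 1 and 3 both omitted it was -0.07 (unadjusted p = 0.574, adjusted p = 0.985, edgeR).

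Beside Klf9, the summed cortical markers were 480, 568 and 448 CPM in the WAS libraries and 646, 679 and 539 CPM in the controls. All 6 cortical markers had log2 fold changes below 0, 3 of them with an unadjusted p under 0.05 in edgeR. The 6 libraries had the same order by Klf9 and by this sum, from control replicate 2 down to WAS replicate 3. The list was set beside Klf9 after its values were seen, and its part in the difference was not tested.

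Fkbp5 encodes FKBP51, a co-chaperone that lowers the affinity of the glucocorticoid receptor for its ligand and whose induction closes a short feedback loop. It was measured at 33.6, 35.8 and 32.4 CPM in the WAS libraries and at 26.3, 32.6 and 29.3 CPM in the controls. The groups overlapped only because control replicate 2 lay slightly above WAS replicate 3. Fkbp5 had a log2 fold change of 0.17 with a standard error of 0.12 (95% interval -0.09 to 0.43, unadjusted p = 0.184, adjusted p = 0.833, edgeR), and the exact permutation p was 0.2. The log2 fold change was 0.087 without control replicate 1 alone, and 0.24 without WAS replicates 1 and 3 (unadjusted p = 0.154, adjusted p = 0.951, edgeR).

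Tsc22d3 encodes GILZ, a leucine zipper protein that carries part of the anti-inflammatory action of glucocorticoids. Its values were 149.6, 119.6 and 120.8 CPM in the WAS libraries and 128.8, 107.4 and 103.3 CPM in the controls, with control replicate 1 above WAS replicates 2 and 3. Tsc22d3 had a log2 fold change of 0.16 with a standard error of 0.11 (95% interval -0.08 to 0.41, unadjusted p = 0.174, adjusted p = 0.823, edgeR). It was 0.048 without WAS replicate 1 alone and 0.26 without control replicate 1 alone. Omitting WAS replicates 1 and 3 gave 0.04 (unadjusted p = 0.759, adjusted p = 0.993, edgeR).

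Sgk1, the serum- and glucocorticoid-regulated kinase whose promoter with the response element is shown above, had the smallest difference of the 9 genes. Its values were 119.0, 131.4 and 123.4 CPM in the WAS libraries and 127.0, 110.9 and 119.2 CPM in the controls, and the groups overlapped widely. The highest library exceeded the lowest by only 1.18 times, the narrowest range of the set. Its log2 fold change was 0.03 with a standard error of 0.09, and its 95% interval of -0.16 to 0.22 spans 0.895 to 1.16 times the control level (unadjusted p = 0.741, adjusted p = 0.968, edgeR). Without WAS replicates 1 and 3 the log2 fold change was 0.10 (unadjusted p = 0.39, adjusted p = 0.972, edgeR).

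Metallothioneins are small cysteine-rich proteins that bind zinc and copper, and Mt1 and Mt2 respond to glucocorticoids, metals and oxidative stress. Mt1 had the smallest p of the set. It was measured at 708.7, 600.2 and 653.3 CPM in the WAS libraries and at 555.7, 519.8 and 576.3 CPM in the controls. Each WAS library was above each control library. Means were 654 ± 54.3 and 551 ± 28.6 CPM, and the log2 fold change was 0.21 with a standard error of 0.09 (95% interval 0.02 to 0.40, 1.16 times the control level). The unadjusted p was 0.0326, rank 757 among the 15237 genes, the adjusted p was 0.649 in edgeR, and the exact permutation p was 0.1.

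Mt2 was measured at 421.9, 340.4 and 344.3 CPM in the WAS libraries and at 339.5, 300.7 and 279.9 CPM in the controls. The lowest WAS library was only just above the highest control, and after TMM scaling the groups overlapped. The log2 fold change was 0.23 with a standard error of 0.10 (95% interval 0.00 to 0.46, 1.17 times the control level), with an unadjusted p of 0.0483 and an adjusted p of 0.686 in edgeR. WAS replicate 1 was the highest library for both genes. For Mt2 the log2 fold change was 0.12 without WAS replicate 1 alone. Omitting WAS replicates 1 and 3 gave log2 fold changes of 0.08 for Mt1 (unadjusted p = 0.453, adjusted p = 0.975, edgeR) and 0.11 for Mt2 (unadjusted p = 0.349, adjusted p = 0.968, edgeR).

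The ratio of Mt1 to Mt2 counts was 1.68, 1.76 and 1.90 in the WAS libraries and 1.64, 1.73 and 2.06 in the controls. The groups overlapped, with means of 1.78 ± 0.11 and 1.81 ± 0.22, and the exact permutation p was 0.9. Both genes put the WAS libraries in the same order, but not the controls. Control replicate 3 was the highest control for Mt1 and the lowest for Mt2. Both genes are expressed in astrocytes, and the summed astrocyte markers were 4240 to 4370 CPM in the WAS libraries and 4243 to 4269 CPM in the controls, most of it from Slc1a2. Of the 7 astrocyte markers, 4 had log2 fold changes above 0 and 2 had an unadjusted p under 0.05 in edgeR, the water channel Aqp4 (0.36) and Aldoc (0.22). Gfap was at 0.51, Gja1 at 0.18, Slc1a2 at -0.10 and Slc1a3 at -0.11. Meningeal fibroblast genes summed to 195, 143 and 204 CPM against 135, 90 and 153 CPM, with 6 of 6 log2 fold changes above 0 and 2 with an unadjusted p under 0.05 in edgeR. Blood genes had 7 of 7 above 0 and 0 of 7 with an unadjusted p under 0.05 in edgeR, with overlapping sums of 1908 to 3223 CPM against 1718 to 2254 CPM. Their part in the metallothionein values was not tested.

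By root mean square difference of centred log2 CPM over the 6 libraries, the genes with the profile most like that of Mt1 among 9400 with a mean of at least 10 CPM were Itpr2, an intracellular calcium channel (0.02), Glo1, the enzyme glyoxalase (0.022), and Tcf12, a transcription factor (0.035). Mt1's own profile departs from a flat line by 0.15. Itpr2 was measured at 52.3, 43.9 and 47.0 CPM in the WAS libraries and at 40.6, 38.2 and 43.4 CPM in the controls, so it too was highest in WAS replicate 1 and lowest in control replicate 2. The likeness is a description over these 6 libraries.

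**Figure D3:**
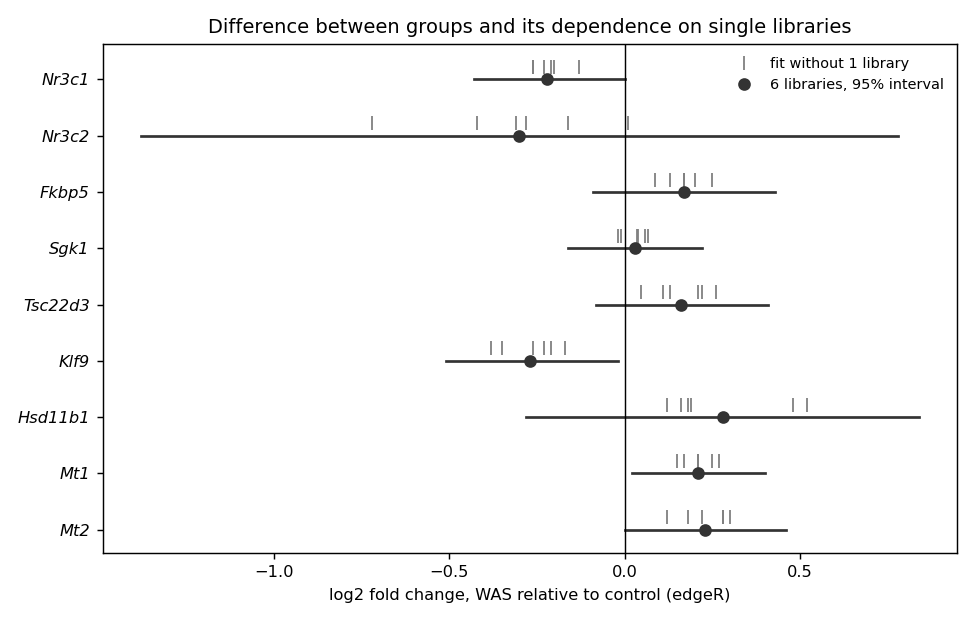
Log2 fold change of each gene, WAS relative to control, from edgeR, with lines for the 95% interval and short ticks for the values with 1 library left out. The intervals of Mt1 and Klf9 lie to either side of 0, those of Mt2 and Nr3c1 end close to 0, and that of Nr3c2, from -1.38 to 0.78, is the widest.

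The other genes of the pathway were read from 5 lists with 75 genes in all, of which 69 passed the filter. Of these, 1 had an unadjusted p under 0.05 in edgeR, beside 7.25% of all genes tested. The same share stands beside the edgeR count of each list below. At that share a list with few tested genes would seldom hold a call. Of the other genes that glucocorticoids induce, 26 of 27 were tested, 17 had log2 fold changes above 0, the median was 0.07 (0.00 over all genes), and 0 had an unadjusted p under 0.05. The log2 fold changes ran from -0.27 for the cell cycle inhibitor Cdkn1a to 0.33 for the connexin Gjb6. The most abundant were Nfkbia, the inhibitor of NF-κB, at 194 ± 6.73 against 187 ± 12.8 CPM (log2 fold change 0.02), Fam107a, an actin-binding stress gene, at 194 ± 24.3 against 220 ± 15.9 CPM (-0.22), and Ddit4, an inhibitor of mTORC1, at 103 ± 8.35 against 95.1 ± 5.51 CPM (0.08). Per1, a clock gene and rapid glucocorticoid target named here after its value was seen, had 81.2 ± 9.42 and 79.3 ± 13.2 CPM (log2 fold change -0.00, adjusted p = 0.998, edgeR). Groups did not overlap for 1 of the 26, Errfi1, an inhibitor of the EGF receptor, with 15.9, 14.9 and 18.9 CPM against 14.5, 12.2 and 14.7 CPM, beside 12.2% of all genes. For this list DESeq2 gave 1 gene with an unadjusted p under 0.05 and limma 0. Lcn2 had 9 reads in all libraries together and was not tested.

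Of the 21 chaperones and coregulators that hold or assist the receptors, all were tested, 11 had log2 fold changes above 0, the median was 0.01 and 0 had an unadjusted p under 0.05, in edgeR, DESeq2 and limma alike. Hsp90ab1, the most abundant and a main partner of the unliganded receptor, had 2716 ± 233 and 2589 ± 253 CPM (log2 fold change 0.03). Of the genes of corticosteroid metabolism and transport, 5 of 9 could be tested and 0 had an unadjusted p under 0.05 by any of these tools, with a median of 0.07. Abcb1a, the efflux pump of the blood-brain barrier, had 45.4 ± 3.86 and 43.5 ± 5.82 CPM (0.03). Hsd11b2, the enzyme that inactivates corticosterone, and Serpina6, the plasma carrier of corticosteroids, had 0 reads in every library, as did Srd5a2 and Cyp11b1.

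Of the other metallothionein and metal response genes, 5 of 6 were tested, with a median of -0.03 and 0 with an unadjusted p under 0.05 in edgeR, DESeq2 or limma. Mt3, the metallothionein of neurons and astrocytes, had 92.3, 110 and 105 CPM in the WAS libraries and 92.2, 99.2 and 118 CPM in the controls (log2 fold change -0.05, adjusted p = 0.967, edgeR), with overlapping groups. Mt4 had 0 reads. The zinc exporter Slc30a1, a target of the same metal-sensing factor, had the highest log2 fold change of this list, 0.03.

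Among 13 paralogues of the members and other steroid receptors, 4 had log2 fold changes above 0, the median was -0.05, and Klf10 had an unadjusted p under 0.05. Klf10, a Krüppel-like factor related to Klf9, had 24.8, 45.2 and 32.6 CPM in the WAS libraries and 54.5, 66.1 and 36.3 CPM in the controls. The groups overlapped through control replicate 3. Klf10 had a log2 fold change of -0.65 with a standard error of 0.23 (unadjusted p = 0.0157, adjusted p = 0.584, edgeR). It was -0.44 to -0.90 with single libraries left out, and the unadjusted edgeR p was no longer under 0.05 when WAS replicate 1 (0.0503) or control replicate 2 (0.0981) was omitted. Without WAS replicates 1 and 3 it was -0.25 (unadjusted p = 0.266, adjusted p = 0.956, edgeR). The order of the libraries by Klf10 was that by Klf9 but for WAS replicates 1 and 3. The most abundant of the list was Fkbp1a, an immunophilin related to Fkbp5, with 727 ± 32.1 and 731 ± 30.0 CPM (log2 fold change -0.04).

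**Figure D4:**
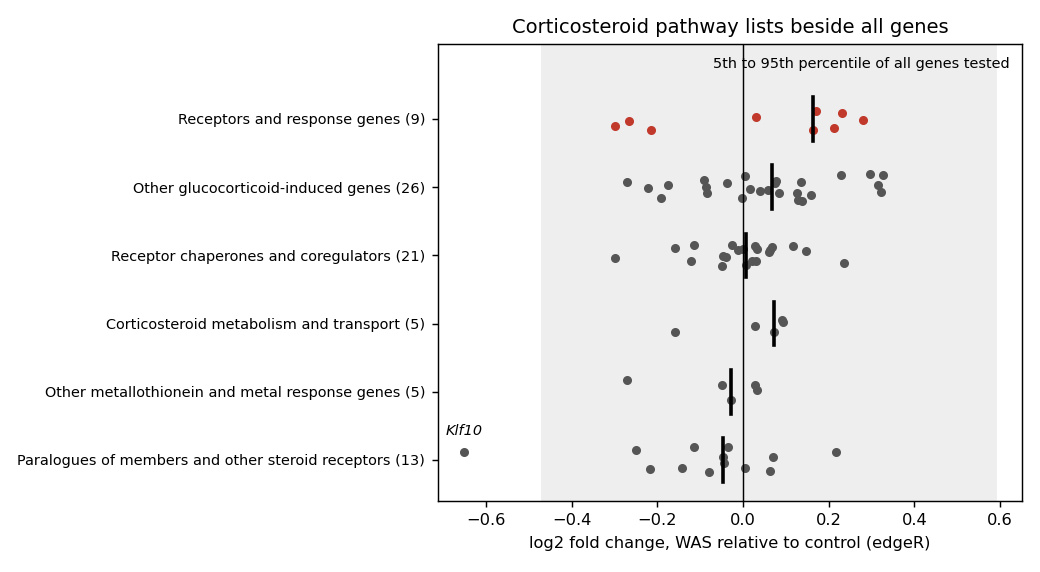
Log2 fold change, WAS relative to control, of the 9 genes (red) and of the tested genes in 5 other lists (grey), with 1 point per gene, a bar for each list's median and the number of genes in brackets, beside a grey band from the 5th to the 95th percentile of all genes tested (-0.47 to 0.59). Klf10, at -0.65, is the single gene of these lists outside the band.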

How the data were processed

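Forebrain RNA of 6 mice was measured by QuantSeq 3′ mRNA sequencing from 500 ng of total RNA. The authors aligned reads of 75 bases and counted them per gene, including reads with several alignments, and the deposited values are raw read counts. The submitters' processing notes name mm10 and bedtools, and the annotation and use of strand are not given in the sources used here. Nr3c2, Fkbp5, Hsd11b1 and Mt2 overlap genes on the opposite strand in GENCODE M21 (GRCm38, the assembly of mm10), whose reads may be included. No member shared a run of 50 bases in the last 500 of its transcripts with another gene, apart from simple repeats in Nr3c1.

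Genes with a mean log2(quantile-normalized count + 1) of at least 2 were tested with edgeR 4.0.16 (TMM scaling, quasi-likelihood F test, R 4.3.3), two-sided, with Benjamini-Hochberg adjustment over 15237 genes. CPM used library totals and the 23282 entries as listed, 44 of them repeats of a symbol. Exact permutation tests compared group means of log2 CPM, or of the log2 ratio of Mt1 to Mt2, and were two-sided. Alternatives were total-count scaling, DESeq2 1.42.0, limma 3.58.1 on quantile-normalized log2 counts, other filters, a replicate block and leaving out libraries. The fits were run on simulated data with 200 changed genes, each changed by more than any member here, and were required to recover the direction. Changes of the members' size were not simulated. Total counts were 9248520 to 10502029 per library, and no molecular identifiers were used, so counting intervals cover counting error only. The labels call the libraries biological replicates. The members and lists were chosen with earlier results of these data known. Beside the members, the text names the most abundant genes of each list (3 for the glucocorticoid-induced genes), those with an unadjusted p under 0.05, and the 3 profiles nearest to the member with the smallest p. Cdkn1a, Gjb6, Per1, Errfi1, Slc30a1 and the genes without enough reads were named after their values were seen. The metabolite measurements of the study were not analysed here.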

Additional observations from a re-analysis of the deposited data

How the results depend on the processing

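No member reached an adjusted p of 0.05 under the 13 alternatives, where the lowest was 0.0524, for Klf9. The log2 fold change of Nr3c2 ran from -0.72 to 0.009, and that of Sgk1 from -0.018 to 0.068, with single libraries left out. Members with an unadjusted p under 0.05 then numbered 0 to 5, the other glucocorticoid-induced genes 0 to 4, the chaperones and coregulators 0 to 2, the paralogues 0 to 3 and all genes 623 to 2084, with 0 to 491 genes by adjusted p, the last without WAS replicate 2. With WAS replicates 1 and 3 both left out, the log2 fold change was 0.30 for Nr3c2 and -0.39 for Hsd11b1, 0 members had an unadjusted p under 0.05, the glucocorticoid-induced, chaperone, metal and paralogue lists had 1 each (the last not Klf10), and 1 gene passed by adjusted p. Of the glucocorticoid-induced genes, 1 had an unadjusted p under 0.05 with total-count scaling, 1 with DESeq2 and 2 without a filter. By adjusted p, DESeq2 called 22 genes. The causes were not tested.

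The replicate numbers were not shown to pair the mice, since deviations of same-numbered libraries correlated at 0.07, 0.09 and 0.09, although each library correlated best with its own number. With the replicate block, 4 members had an unadjusted p under 0.05 (Nr3c1 in addition), as did 4 glucocorticoid-induced genes and 1 chaperone or coregulator, beside 1428 of all genes (1104 without it), and 50 genes passed by adjusted p. Nr3c2 had the fewest reads of the members, 75 in all libraries together. Its counting error at the mean count was 28.3%, and its biological coefficient of variation was 30.7%.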
